A study of Homo sapiens with 10 samples.

Results

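Mitochondrial ribosomal protein genes were followed in PANC-1, a cell line established from a carcinoma of the human pancreas. Members were the genes whose symbol is MRPL or MRPS followed by a number, together with DAP3. Antisense genes and pseudogenes were left out. The rule took 79 genes of the 20263 in the table, and all 79 passed the filter on low values, which kept 11663 genes. The lowest mean of any member in either treatment group was 14.6 TPM, against 1 TPM in the filter. Cells had received 20 µM LY, which the series title gives as lycorine, an alkaloid of Amaryllidaceae plants, for 24 h in 5 libraries. DMSO, the vehicle, was given in the other 5. Both groups are the same line with no further genotype or treatment in the labels, and whether the libraries of 1 group are separate cultures is not stated in the sources used here. All p-values therefore measure only the spread between these libraries, which may be technical.

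The mitochondrial ribosome translates the few messages of the mitochondrial genome, all of which encode subunits of the respiratory chain or of ATP synthase. Its ribosomal RNAs are encoded in mitochondrial DNA, whereas every protein of it is encoded in the nucleus, made on cytosolic ribosomes and imported. The large subunit forms peptide bonds and the small subunit reads the message. Lycorine is known as an inhibitor of cytosolic, eukaryotic ribosomes. Members fall into the large subunit with 51 genes and the small subunit with 28. MRPS30 and MRPS18A carry a small-subunit symbol but sit in the large subunit of the solved structures, and they were counted there. MRPS36 was counted as small by its symbol, although its protein is known as a subunit of the 2-oxoglutarate dehydrogenase complex.

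Values are TPM, the share of a transcript in its library scaled to a fixed total, which are normalised for transcript length and can be compared between genes. Log2 fold changes are LY over DMSO on log2(TPM + 1), which understates changes of low genes. They are given ± SE with 5 libraries per group and Benjamini-Hochberg adjusted p-values from limma over all tested genes. Over the tested genes the median log2 fold change was 0.17, so several changes are also given relative to that median. The others are as fitted, without that median taken off. Control library NC-2 stood apart: mitochondrially encoded genes took 37.5% of its TPM, against 12.2% to 14.1% in the other controls and 6.43% to 14.9% in LY. TPM is a share of a total, and NC-2 held the lowest control value in 63 of the 79 members and the highest in 5. The median coefficient of variation of the members was 18.3% over the 5 controls, 5.61% without NC-2 and 15.1% in LY. Of the 4 tested ductal markers, KRT18 rose from 714 ± 70.2 to 1010.0 ± 66.8 TPM (adjusted p = 0.00097 by limma), KRT19 fell from 148 ± 16.6 to 21.0 ± 3.47 TPM (adjusted p = 1.48e-08 by limma; SD, n = 5), and KRT8 and SOX9 were expressed without passing. KRT7 was near 0, as was the leukocyte marker PTPRC. Markers of acinar, endocrine and endothelial cells and the fibroblast marker DCN were listed at 0, while the other fibroblast marker, COL1A1, fell from 2.85 ± 0.55 to 0.46 ± 0.16 TPM (adjusted p = 1.17e-06 by limma). In bulk RNA, less RNA per cell and fewer cells of a kind cannot be told apart.

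Promoters are shown for the members with the largest increases and decreases, since the letters of known regulators of nuclear mitochondrial genes could be looked for in them. The windows are RefSeq's on GRCh38.p14 and run from 250 bases before to 50 bases after the start site. They lie at chr5:44808697-44808996 on the plus strand for MRPS30, chr9:101398569-101398868 on the minus strand for MRPL50, chr16:1773085-1773384 on the minus strand for MRPS34 and chr11:59810729-59811028 on the minus strand for MRPL16. Capitals mark the letters ATGGCGGC or AAGATGG followed directly by CGG (YY1) in MRPS30 and MRPL50, and CCGGAAGT read on the other strand (the ETS family, which holds GABP) in MRPS34 and MRPL16.
MRPS30: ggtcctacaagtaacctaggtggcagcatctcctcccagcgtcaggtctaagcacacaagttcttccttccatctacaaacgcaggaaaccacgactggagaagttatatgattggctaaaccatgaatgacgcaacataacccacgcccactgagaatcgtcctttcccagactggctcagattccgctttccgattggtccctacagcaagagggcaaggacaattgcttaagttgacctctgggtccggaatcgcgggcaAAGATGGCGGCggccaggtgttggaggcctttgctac
MRPL50: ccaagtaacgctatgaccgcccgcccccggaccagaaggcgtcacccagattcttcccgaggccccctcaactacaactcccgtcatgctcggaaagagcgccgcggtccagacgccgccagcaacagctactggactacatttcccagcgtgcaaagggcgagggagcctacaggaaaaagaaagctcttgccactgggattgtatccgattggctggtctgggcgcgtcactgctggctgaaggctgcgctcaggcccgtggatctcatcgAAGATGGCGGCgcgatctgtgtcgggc
MRPS34: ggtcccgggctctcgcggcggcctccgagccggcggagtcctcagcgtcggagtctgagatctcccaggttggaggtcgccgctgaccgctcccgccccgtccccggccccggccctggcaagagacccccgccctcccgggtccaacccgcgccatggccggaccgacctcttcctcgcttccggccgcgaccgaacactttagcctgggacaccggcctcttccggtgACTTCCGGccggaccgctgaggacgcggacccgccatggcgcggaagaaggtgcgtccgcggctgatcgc
MRPL16: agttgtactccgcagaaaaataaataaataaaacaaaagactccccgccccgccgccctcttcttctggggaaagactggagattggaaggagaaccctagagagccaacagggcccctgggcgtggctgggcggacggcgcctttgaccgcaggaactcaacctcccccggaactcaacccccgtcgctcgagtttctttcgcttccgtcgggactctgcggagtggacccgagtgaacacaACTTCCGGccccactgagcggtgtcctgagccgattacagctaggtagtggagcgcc
In MRPS30 and MRPL50, which rose, the YY1 letters begin 13 and 23 bases after the start. They thus lie in the transcribed part and hold an ATG, and whether they are coding letters or a site that YY1 binds was not tested. MRPS34 and MRPL16, which fell, hold the ETS letters 20 and 7 bases before it.

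The same letters were counted on both strands in every window of the table, with 87 windows for 70 members and no window for the other 9. The YY1 forms overlap each other and were counted as 1. They were in 26.4% of member windows, against 3.33% of all 35116 windows and 6.50% of the windows of tested genes. The ETS letters were in 16.1%, against 4.14% and 7.95%. The NRF1 letters, GCGCA, any base and GCGC, were in 11.5%, against 5.78% and 10.4%. The E-box CACGTG, which MYC is known to bind, was in 10.3%, against 7.26% and 9.54%. Counted by gene, the YY1 letters were in 31.4% of members and 8.98% of tested genes with a window, and the ETS letters in 17.1% and 10.8%. The NRF1 letters were in 12.9% and 14.1% by gene, and the E-box in 12.9% of both. By direction, the YY1 letters were in 11 of the 28 higher members with a window, in 1 of the 7 lower ones (MRPS24) and in 10 of the other 35. ETS letters were in 1 higher member (MRPL47), 2 lower ones and 9 of those that did not pass. The NRF1 letters were in 6 higher members, 0 lower ones and 3 of the others, and the E-box in 5, 0 and 4. These counts describe letters in windows and were not tested.

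Of the 79 members, 33 rose and 7 fell in LY at an adjusted p under 0.05 by limma, and 39 did not pass. Among all tested genes 39.8% rose and 24.9% fell, so the members' 41.8% higher was near the background and their 8.86% lower was below it. Changes of the higher members ranged from 0.29 to 1.83, and those of the lower members from -1.05 to -0.37. By group means, 10 members were at least 2-fold higher and 1 was at least 2-fold lower. The share of all tested genes past this cut was not computed, so these 2 counts have no background. Every LY library lay above every control in 23 members and below every control in 1, MRPS34, against 32.7% and 16.7% of all tested genes. With NC-2 set aside, 24 members lay wholly above and 14 wholly below, against 34.3% and 27.1%. All 7 members that fell were among those 14.

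**Figure D1:**
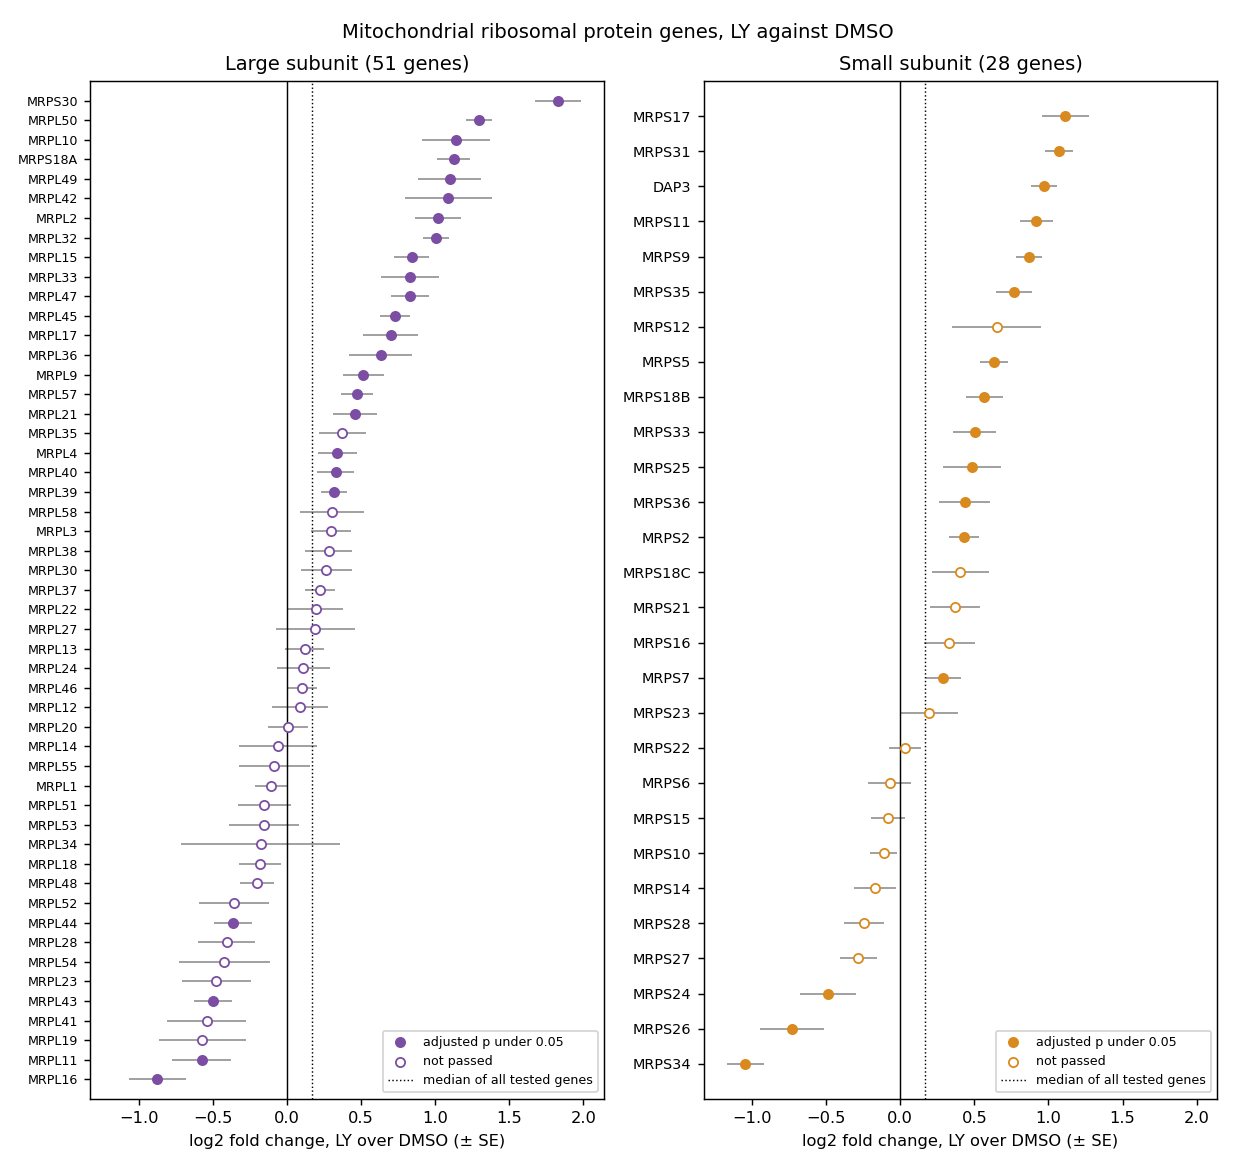
Log2 fold change of each member, LY over DMSO, with its SE as a line, for the 51 large and 28 small subunit genes in order of size. Filled points passed an adjusted p of 0.05, and the dotted line is the median of all tested genes at 0.17. Changes run from -1.05 (MRPS34) to 1.83 (MRPS30), and both subunits hold genes on each side of 0.

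In the large subunit, 20 genes rose, 4 fell and 27 did not pass, and MRPS30 rose the most. MRPS30, a protein without a bacterial counterpart, lies at chr5:44808925-44820428. It was at 537, 509, 369.8, 385 and 351 TPM in LY-1 to LY-5 and at 114, 161, 107, 109 and 109.8 TPM in NC-1 to NC-5. The lowest LY library was more than 2-fold above the highest control, NC-2, and the means differed 3.58-fold. Its log2 fold change was 1.83 ± 0.16 (adjusted p = 1.02e-06 by limma), or 1.66 relative to the median gene. Over all 10 libraries MRPS30 was the most abundant member. LY-1 and LY-2, the LY libraries with the largest mitochondrially encoded shares (14.9% and 11.4%), held its highest values. The part of that share in the value was not tested.

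MRPL50, also particular to mitochondrial ribosomes and located at chr9:101387633-101398614, was among the less abundant members. It was at 57.5, 54.9, 67.2, 64.4 and 54.7 TPM in LY and at 23.5, 21.8, 24.7, 24.5 and 24.0 TPM in the controls. The groups lay far apart and NC-2 was close to the other controls. The change was 1.29 ± 0.09 (adjusted p = 2.22e-07 by limma), or 1.13 relative to the median gene.

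MRPL10 at chr17:47823272-47831534 encodes the base of the stalk, which receives translation factors. Its values were 114, 173, 91.7, 90.7 and 102 TPM in LY and 51.0, 39.6, 83.4, 50.8 and 35.7 TPM in the controls. LY-2 was the high library and NC-3 the high control, and the groups came close to each other without overlapping. MRPL10 rose by 1.14 ± 0.23 (adjusted p = 0.000991 by limma), or 0.97 relative to the median gene.

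MRPS18A at chr6:43671303-43687791 is 1 of 3 human relatives of bacterial protein S18 and sits in the large subunit. It was tightly grouped, at 129, 131, 132, 119 and 143 TPM in LY and 61.7, 45.0, 63.0, 62.4 and 67.5 TPM in DMSO. NC-2 was the low control, and all LY libraries lay above all controls. The rise was 1.12 ± 0.11 (adjusted p = 4.06e-06 by limma), or 0.96 relative to the median gene. MRPS18A overlaps the gene model of RSPH9, and how reads in such overlaps were assigned is not given in the sources used here.

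All 4 large-subunit genes that fell had the same layout, with NC-2 among the LY values and the other controls above all LY libraries. MRPL16 at chr11:59806135-59810872 is the counterpart of a bacterial protein near the peptidyl transferase centre. It was at 50.9, 51.2, 65.1, 69.3 and 71.8 TPM in LY and at 122, 67.0, 125, 129 and 137 TPM in NC-1 to NC-5. It fell by 0.87 ± 0.19 on the log2 scale (adjusted p = 0.0016 by limma), and stood at -1.04 relative to the median gene. MRPL11 at chr11:66435075-66466738, part of the site where elongation factors act, was at 70.5, 61.3, 85.0, 81.3 and 86.5 TPM in LY and at 135, 64.6, 124, 130.2 and 138 TPM in DMSO. Its change of -0.58 ± 0.20 had an adjusted p of 0.0229 by limma, which went to 0.0588 without LY-2 and to between 0.0526 and 0.0561 when NC-1, NC-4 or NC-5 was left out.

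MRPL43 at chr10:100969458-100987515 and MRPL44 at chr2:223957404-223967714 encode proteins particular to mitochondrial ribosomes. MRPL43 was at 49.2, 56.4, 47.3, 49.2 and 56.5 TPM in LY and at 81.1, 55.6, 83.1, 85.8 and 66.3 TPM in DMSO. NC-2 fell inside the LY range, and the change was -0.50 ± 0.13 (adjusted p = 0.00434 by limma). MRPL43 overlaps TWNK, the gene of the mitochondrial DNA helicase, which rose by 1.07 ± 0.12 (adjusted p = 7.49e-06 by limma). Reads of the overlap cannot be told apart in TPM. MRPL44 was at 34.1, 40.5, 41.9, 44.0 and 39.1 TPM in LY and at 55.1, 37.8, 53.1, 56.8 and 57.7 TPM in DMSO. NC-2 was again the low control, and the change was -0.37 ± 0.13 (adjusted p = 0.0232 by limma), which went to between 0.0522 and 0.0594 when LY-1, NC-1, NC-4 or NC-5 was left out.

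In the other abundant or listed members of the large subunit the groups overlapped. MRPL4, which lines the exit tunnel and was the third most abundant member, was at 335, 361, 222, 249.7 and 273 TPM in LY. Its controls were at 220.2, 223, 217, 242 and 219 TPM. LY-1 and LY-2 were the high libraries and NC-2 and NC-4 lay above LY-3. The change of 0.34 ± 0.13 passed (adjusted p = 0.0395 by limma) but was 0.17 relative to the median gene, and it was 0.17 with an adjusted p of 0.347 after median-ratio scaling.

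MRPL51 was at 181, 209.8, 259, 276 and 266 TPM in LY and at 287, 169, 287, 288 and 309 TPM in DMSO. NC-2 was below every LY library and the other controls above all of them, and the change did not pass (-0.15 ± 0.18, adjusted p = 0.469 by limma). It was -0.31 with an adjusted p of 0.0402 without NC-2. MRPL12, the mobile arm of the stalk, was at 195, 198, 241, 278 and 275 TPM in LY and at 248, 132, 248, 249.5 and 259 TPM in DMSO. The groups overlapped, and its change of 0.09 ± 0.19 (adjusted p = 0.703 by limma) was -0.08 after median-ratio scaling and -0.10 without NC-2. MRPL58, a peptidyl-tRNA hydrolase that frees stalled ribosomes, spread from 71.0 to 149.7 TPM in LY, with a median of 123, and from 67.3 to 115 TPM in DMSO, with a median of 112. Its change of 0.30 ± 0.22 did not pass (adjusted p = 0.24 by limma).

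In the small subunit 13 genes rose, 3 fell and 12 did not pass. MRPS17 at chr7:55951819-55956501, the counterpart of a bacterial protein that binds the ribosomal RNA, rose the most. It was at 86.0, 79.0, 98.3, 123 and 104 TPM in LY and at 46.0, 30.5, 48.8, 49.1 and 50.6 TPM in DMSO. All LY libraries lay above all controls, with NC-2 low. The change was 1.11 ± 0.16 (adjusted p = 6.51e-05 by limma), or 0.95 relative to the median gene.

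MRPS31 at chr13:40729135-40771173 and DAP3 at chr1:155687960-155739010 are particular to mitochondrial ribosomes. DAP3 is a GTP-binding protein also known from work on cell death. MRPS31 was at 51.9, 44.5, 56.3, 51.9 and 43.3 TPM in LY and at 21.6, 21.9, 23.0, 24.6 and 23.6 TPM in DMSO. Its controls differed little, NC-2 included, and it rose by 1.07 ± 0.10 (adjusted p = 1.54e-06 by limma). DAP3 was at 272, 298, 336, 296 and 275 TPM in LY and at 156, 139, 147, 156 and 152 TPM in DMSO. No LY library came near the controls, and it rose by 0.97 ± 0.09 (adjusted p = 1.79e-06 by limma). Relative to the median gene, MRPS31 rose by 0.90 and DAP3 by 0.80.

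MRPS11 at chr15:88467453-88480773, a protein of the platform next to the message, was among the least abundant members. Its values were 42.7, 38.2, 28.8, 31.0 and 31.7 TPM in LY and 16.5, 18.6, 18.0, 17.2 and 17.6 TPM in DMSO. LY-1 and LY-2 were the high libraries, and every LY library lay well above the highest control, NC-2. It rose by 0.92 ± 0.11 (adjusted p = 2.09e-05 by limma), or 0.75 relative to the median gene.

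MRPS34 at chr16:1771890-1773155 fell more than any other member. It was at 74.8, 89.4, 76.2, 83.3 and 93.5 TPM in LY and at 192, 129, 193, 177 and 182 TPM in DMSO. Even NC-2, the low control, lay above every LY library. The change was -1.05 ± 0.12 (adjusted p = 1.47e-05 by limma), or -1.21 relative to the median gene. MRPS26 at chr20:3045945-3048254 was at 63.0, 77.3, 81.3, 84.7 and 94.8 TPM in LY and at 155, 69.3, 158, 159 and 152 TPM in DMSO. NC-2 lay among the LY libraries and the other controls far above them, and MRPS26 fell by 0.73 ± 0.22 on the log2 scale (adjusted p = 0.0111 by limma). Both proteins are particular to mitochondrial ribosomes.

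MRPS24 at chr7:43866558-43869893, which lies where the message enters, was the most abundant member that fell. It was at 164, 203, 185, 211 and 249.6 TPM in LY and at 341, 172, 328, 339.5 and 269 TPM in DMSO. NC-2 lay within the LY range. The change was -0.49 ± 0.19 (adjusted p = 0.0399 by limma), and 9 of the 23 alternative settings took the adjusted p to between 0.0567 and 0.0938. Its model overlaps a read-through transcript of URGCP and MRPS24, with which it shares sequence, so its values are uncertain.

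MRPS2, the second most abundant member, was at 300.5, 359.8, 263, 278 and 327 TPM in LY and at 244, 222, 224, 214 and 221 TPM in DMSO. The groups did not overlap, and the change was 0.43 ± 0.10 (adjusted p = 0.00267 by limma), although it was 0.26 with an adjusted p of 0.0638 after median-ratio scaling. MRPS12, a protein of the decoding centre, ran from 90.0 to 175 TPM in LY and from 35.0 (NC-2) to 109 TPM in DMSO. Its change of 0.65 ± 0.30 did not pass (adjusted p = 0.075 by limma). MRPS36 was at 51.1, 59.2, 66.6, 79.1 and 69.2 TPM in LY and at 50.1, 30.5, 49.9, 52.3 and 59.5 TPM in DMSO. LY-1 and LY-2 lay within the range of the controls, and the change of 0.43 ± 0.17 (adjusted p = 0.0432 by limma) went to 0.28 with an adjusted p of 0.0555 without NC-2.

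**Figure D2:**
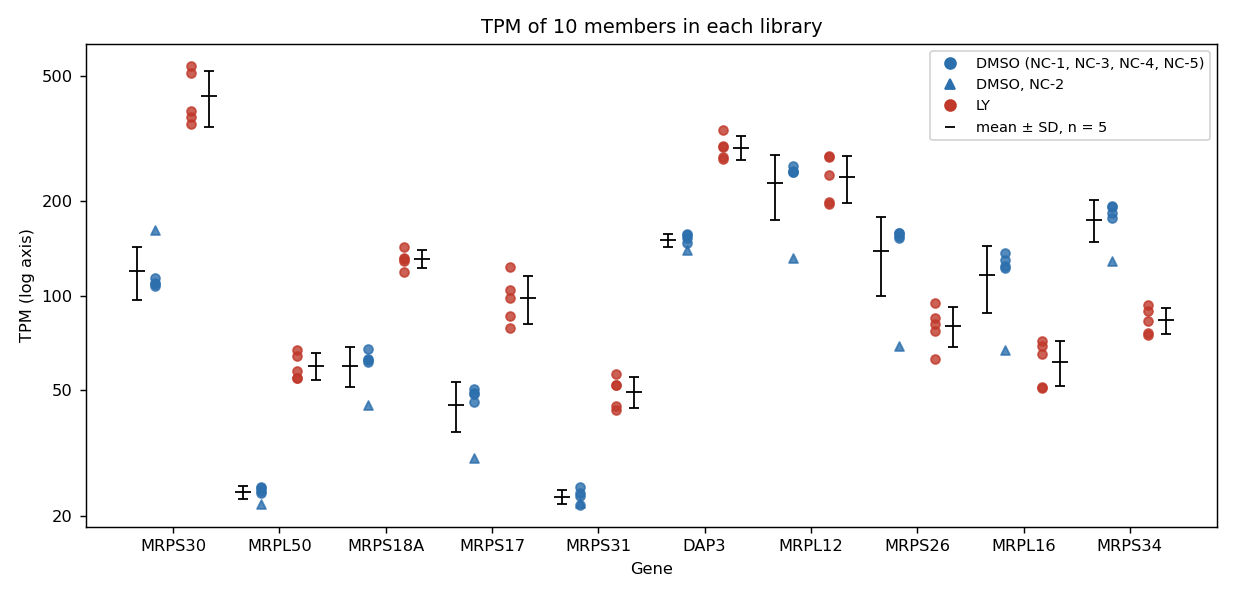
TPM on a log axis of 10 members in each library, with blue for DMSO, red for LY, a triangle for NC-2 and black bars for the mean ± SD of 5 libraries. MRPS30 to DAP3 show LY above all controls, MRPL12 overlaps, and in MRPS26 and MRPL16 only the NC-2 triangle reaches the LY values.

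Among the MRPS18 relatives, MRPS18A is described above and 2 of the 3 rose. MRPS18B, which sits in the small subunit, was at 68.2, 69.7, 76.4, 81.1 and 82.2 TPM in LY and at 55.5, 37.4, 57.2, 49.0 and 56.1 TPM in DMSO. The groups did not overlap, and it rose by 0.57 ± 0.12 (adjusted p = 0.00167 by limma). MRPS18C, the closest to the bacterial protein in its place on the ribosome, was at 62.2, 60.3, 88.9, 73.7 and 68.7 TPM in LY and at 50.3, 31.5, 61.4, 62.5 and 66.8 TPM in DMSO. These groups overlapped, and its change of 0.40 ± 0.19 did not pass (adjusted p = 0.0843 by limma). Differences among the 3 relatives were not tested.

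By place on the ribosome, members did not move as blocks. Among all tested genes 39.8% rose and 24.9% fell, as the background for the counts below. In the stalk and factor-binding site, MRPL10 rose, MRPL11 fell and MRPL12 did not pass. At the peptidyl transferase centre and exit tunnel, 4 of 10 genes rose, 1 fell and 5 did not pass. These shares, 40% and 10%, were near the background for higher and below it for lower. At the decoding site and path of the message, 4 of 6 rose (MRPS5, MRPS2, MRPS7 and MRPS11), MRPS24 fell and MRPS12 did not pass. Those are 66.7% higher and 16.7% lower. MRPS5 and MRPS11 kept the call after median-ratio scaling, whereas MRPS2 and MRPS7 did not, and MRPS7 (0.29 ± 0.12, adjusted p = 0.0486 by limma) kept it in 5 of the 23 alternatives. Of the 45 members with bacterial counterparts, 17 rose and 3 fell, with a median of 0.12 relative to the median gene. Of the 32 particular to mitochondrial ribosomes, 15 rose and 4 fell, also with 0.12, and both medians were -0.03 after quantile normalization. These are 37.8% higher and 6.67% lower in the first class and 46.9% and 12.5% in the second, beside 39.8% and 24.9% of all tested genes. After median-ratio scaling the counts were 13 higher and 11 lower in the first class and 12 and 9 in the second, beside 33.0% and 33.1%.

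Levels of the 2 subunits were close in DMSO. The median over genes of the mean TPM was 80.3 for the large and 81.7 for the small subunit in DMSO, and 104 and 90.4 in LY. Large-subunit means in LY ran from 21.4 to 430.2 TPM and small-subunit means from 14.6 to 306 TPM. Of the 79 members, 77 lay above the median level of the tested genes, 23.1 TPM.

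The shares called were 39.2% higher and 7.84% lower in the large subunit and 46.4% higher and 10.7% lower in the small. Among all tested genes they were 39.8% and 24.9%. The median change was 0.22 in the large subunit, which turned to -0.02 with quantile and -0.05 with upper-quartile scaling, and 0.39 in the small, which went to 0.12 with each of these scalings and to 0.21 without NC-2. Relative to the median gene these were 0.05 and 0.22. The difference of -0.17 kept its sign when each library was left out in turn, between -0.18 and -0.08, the smallest size being without NC-2. Every LY library lay above every control in 14 large and 9 small genes, and below in 0 and 1. These are 27.5% and 32.1% above and 0% and 3.57% below, beside 32.7% and 16.7% of all tested genes. Without NC-2 the counts were 15 and 9 above and 11 and 3 below, beside 34.3% and 27.1% of all tested genes. A difference between the subunits was not tested, since genes are not replicates.

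Summed over its 51 genes, the large subunit was at 5368, 5841, 6000.4, 6135 and 6175 TPM in LY and at 5029.7, 3488, 4959, 5024 and 5360.3 TPM in DMSO. All LY sums were above all control sums, LY-1 only narrowly above NC-5, and the means were 5904 ± 327 and 4772 ± 735 TPM (SD, n = 5). MRPS30 alone gave 537 TPM in LY-1 and 109.8 TPM in NC-5, so without it the sum of LY-1 lay below that of NC-5. The small subunit summed to 2708, 2874, 3149, 3164 and 3140.1 TPM in LY and to 2751, 1929, 2699, 2722 and 2667 TPM in DMSO. LY-1 lay among the controls and the other LY libraries above them. As a share of the TPM of nuclear genes, all members together took 0.950% to 1.01% in LY and 0.867% to 0.915% in DMSO. Here the groups did not overlap and NC-2 lay close to the other controls. This separation rested on MRPS30, since without that gene the share of LY-1 also lay below that of NC-5.

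The ratio of the large to the small sum was 1.91 to 2.03 in LY and 1.81 to 2.01 in DMSO, with NC-5 the high control. Sorting by symbol alone, which moves MRPS30 and MRPS18A to the small subunit, turned the order, with 1.39 to 1.56 in LY and 1.54 to 1.82 in DMSO. With MRPS30 left out the mean ratios were 1.82 in both groups. The order of the groups in this ratio thus changed with where MRPS30 and MRPS18A were counted.

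**Figure D3:**
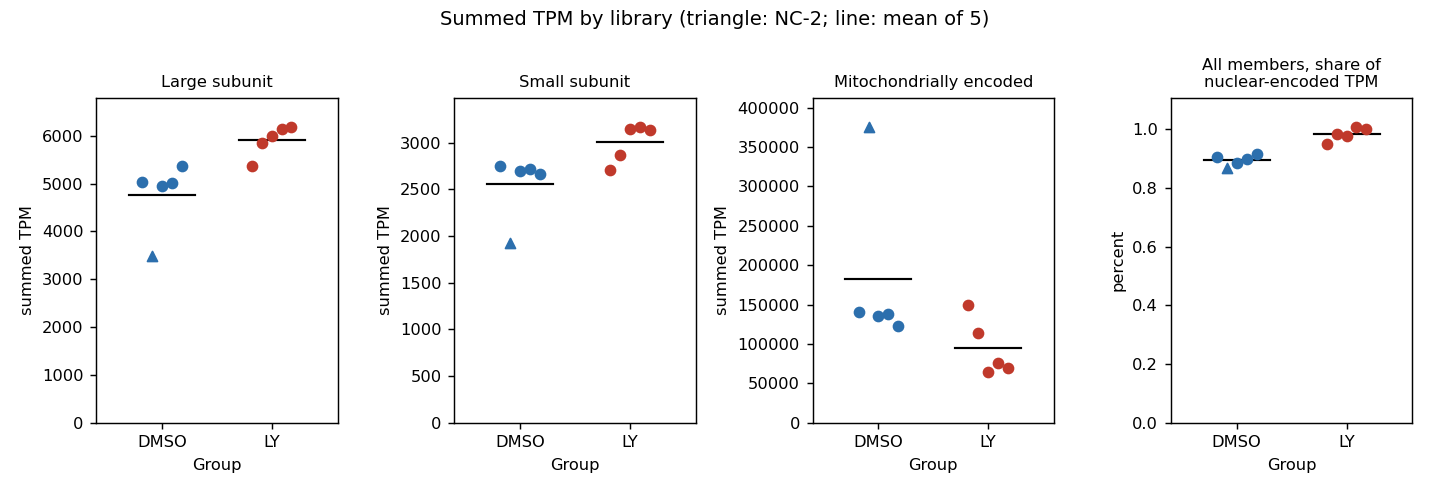
Summed TPM of the large subunit, the small subunit and the mitochondrially encoded genes, and the members' share of nuclear TPM in percent, by library, with lines at the means of 5 and a triangle for NC-2. With MRPS30 counted, the members' share separates LY (0.950% to 1.01%) from DMSO (0.867% to 0.915%). The mitochondrially encoded sum of NC-2 stands far above all others.

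The counts of members that rose (33) and fell (7) both depended on the scale, as did the shares of all tested genes (39.8% and 24.9% as deposited). After median-ratio scaling, which brought the median change of all genes to 0.01, 25 members were higher and 20 lower, against 33.0% and 33.1% of tested genes. With mitochondrially encoded genes removed and the rest rescaled, 28 were higher and 20 lower, against 33.2% and 32.7%. Without NC-2, 31 were higher and 17 lower, against 39.5% and 31.0%. All 25 higher members under median-ratio scaling were also higher as deposited, and 13 of the 20 lower ones had not passed as deposited. No member was called in opposite directions under any of the 6 scalings. All 6 moved the members' median change down, from 0.29 to between 0.02 and 0.14. The absence of reversals or of new higher calls is therefore little of a check on the calls. In all 23 alternatives, 22 higher members (14 large, 8 small) and 4 lower ones (MRPL16, MRPL43, MRPS26 and MRPS34) kept their call. The share of all tested genes that did so was not computed, so these counts have no background.

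**Figure D4:**
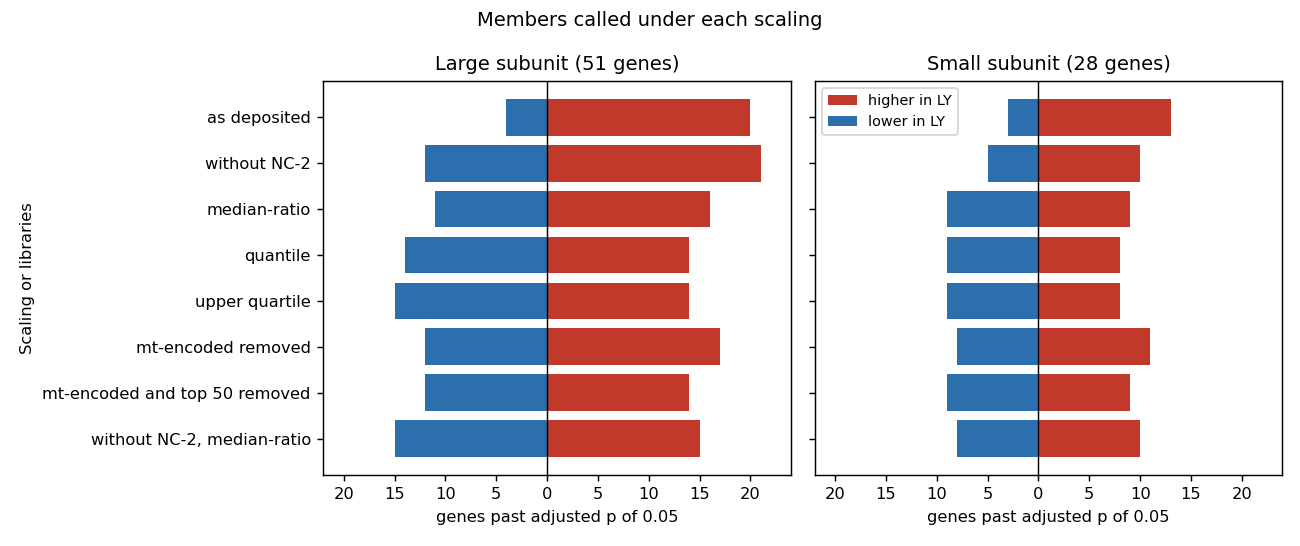
Number of large and small subunit genes past an adjusted p of 0.05, higher in LY to the right and lower to the left, under the values as deposited and 7 alternatives. Higher calls run from 14 to 21 genes in the large and from 8 to 13 in the small subunit, and lower calls from 4 to 15 and from 3 to 9.

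GC content and length of the transcripts were set beside the changes. Across the 79 members, Spearman's rho between GC content and log2 fold change was -0.28, beside -0.26 across 11575 tested genes, as a description over genes that share the same libraries. Median GC content was 47.3% in the higher members, 55.9% in the lower and 48.9% in the others. The 3 small-subunit genes that fell had 58.3% to 64.8% GC. The 4 large-subunit genes that fell had 44.9% to 55.9%, with a median of 50.7%, beside 52.3% in the large-subunit genes that did not pass. For transcript length, rho was 0.32 among members and 0.12 over all genes. By GENCODE 29 models, 50 members overlap another gene, 39 of them a protein-coding one, which may share reads.

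**Figure D5:**
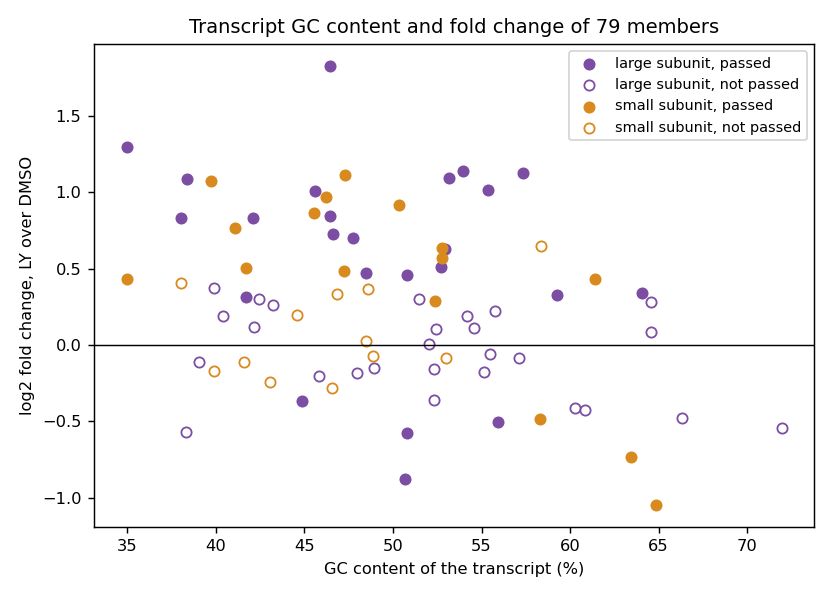
GC content of the transcript in percent against log2 fold change for the 79 members, with large subunit genes in purple, small in orange and filled points for those past an adjusted p of 0.05. The small-subunit genes that fell lie at 58.3% to 64.8% GC and the large-subunit ones at 44.9% to 55.9%. Rising genes spread from 35.0% to 64.1%.

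Other genes of the mitochondrial ribosome and its pathway were taken from lists. Of 4 mitoribosomal proteins with other symbols, PTCD3 rose by 0.27 ± 0.10 (adjusted p = 0.0305 by limma, and 0.296 after median-ratio scaling) and CHCHD1 fell by 0.63 ± 0.17 on the log2 scale (adjusted p = 0.0063 by limma). AURKAIP1 and GADD45GIP1 did not pass. Of 30 genes of assembly and ribosomal RNA maturation, 15 rose and 4 fell (50% and 13.3%, beside 39.8% and 24.9% of all tested genes). Their median of 0.34 was 0.17 after median-ratio, 0.09 after quantile and 0.07 after upper-quartile scaling. Largest there were MRM1, which methylates the large ribosomal RNA, from 7.08 ± 1.95 to 32.9 ± 5.80 TPM (SD, n = 5), and GTPBP10, a GTPase of large-subunit assembly, from 7.08 ± 0.91 to 24.7 ± 2.77 TPM. Their changes of 2.10 ± 0.19 and 1.67 ± 0.11 had adjusted p-values of 1.63e-06 and 1.55e-07 by limma.

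Of 19 translation factors 7 rose and 2 fell (36.8% and 10.5%, beside 39.8% and 24.9% of all tested genes). Their median of 0.13 was -0.03 after median-ratio scaling and -0.01 without NC-2. The release-factor relatives MTRFR (1.18 ± 0.15) and MTRF1L (1.11 ± 0.10) rose the most, with adjusted p-values of 3.41e-05 and 1.24e-06 by limma. Of 10 genes of mitochondrial DNA transcription and upkeep 5 rose and 1 fell, or 50% and 10% (3 and 3 genes after upper-quartile scaling). The rises were led by the transcription factor TFB2M (1.11 ± 0.12, adjusted p = 6.76e-06 by limma) and the helicase TWNK. The 13 mitochondrially encoded messages, which these ribosomes translate, had 0 higher (0 also at an unadjusted p under 0.05) and 8 lower calls by limma, or 0% and 61.5%. Their median was -0.87, with 5 lower and a median of -0.31 after quantile normalization. MT-ND6 was at 858 to 2501 TPM in LY and 2949 to 7946 TPM in DMSO, and MT-ND5 at 1238 to 3180 and 3751 to 10625 TPM, with NC-2 the highest in both. Their log2 fold changes were -1.57 ± 0.33 and -1.44 ± 0.34 (adjusted p = 0.00133 and 0.00253 by limma).

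Among 8 tested regulators of nuclear mitochondrial genes, 5 rose, 2 fell and 1 did not pass. These are 62.5% higher and 25% lower, beside 39.8% and 24.9% of all tested genes. PPRC1, a coactivator, went from 56.8 to 70.0 TPM in DMSO to 146 to 200.5 TPM in LY and rose by 1.45 ± 0.11 (adjusted p = 4.42e-07 by limma). MYC rose by 1.48 ± 0.35 (adjusted p = 0.00288 by limma), with 402 TPM in LY-2 and 88.7 to 121 TPM in the other LY libraries. Outside the rule for named genes, and with their values known, the factors whose letters were counted are given here. YY1 rose by 0.38 ± 0.11, GABPB1 by 1.13 ± 0.13 and GABPA by 0.30 ± 0.11, whereas NRF1 fell by 0.56 ± 0.15 on the log2 scale (adjusted p = 0.00923, 1.49e-05, 0.0283 and 0.0049 by limma). After median-ratio scaling GABPA did not pass (0.13, adjusted p = 0.313 by limma) and the other 3 did.

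The proteins of the cytosolic ribosome gave a comparison of the same size. Of 79 tested genes, 6 rose, 0 fell by limma (1 at an unadjusted p under 0.05) and 73 did not pass, with a median of 0.02, against 33, 7 and 39 and a median of 0.29 in the members. The cytosolic shares were 7.59% higher and 0% lower, beside 39.8% and 24.9% of all tested genes. RPL10A (0.92 ± 0.24, adjusted p = 0.00532 by limma) and RPL24 (0.73 ± 0.11, adjusted p = 8.11e-05 by limma) rose the most. After median-ratio scaling the cytosolic genes had 6 higher and 9 lower calls with a median of -0.15, and without NC-2 they had 7 and 27 with a median of -0.18. The members' medians there were 0.12 and 0.19. Of all tested genes, 33.0% were higher and 33.1% lower after median-ratio scaling, and 39.5% and 31.0% without NC-2. Relative to the median gene, the medians were -0.15 for the cytosolic genes and 0.12 for the members in all libraries (-0.01 and -0.03 after quantile normalization), and a difference between the lists was not tested.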

How the data were processed

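RNA sequencing was done on 10 libraries of PANC-1 cells, 5 per group by the labels. The labels give an RNeasy kit for the extraction and the series text gives Trizol. That text also counts 4 samples in each group where the labels have 5, and all 10 were used. The authors deposited TPM, 1 column per library, each summing to nearly the same total (999932 to 999967). Not given in the sources used here are the aligner, the counting tool, the annotation, strand use and how overlapping genes were counted. The builds GRCm38, mm10 and hg38 stand in the submitters' processing notes without roles, and the gene IDs are human. TPM keeps no read totals, so depth is unknown and no counting interval is given. No sample title holds the name NC, which the control columns NC-1 to NC-5 carry, so they stand for the DMSO group without replicate numbers.

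Of 20263 IDs, 20148 were named from a symbol table and 76 from GENCODE 29, which also gave hg38 positions, lengths and GC content, and 39 stayed unnamed. A gene was kept if at least 5 libraries had a TPM of 1 or more. limma 3.58.1 with trend (R 4.3.3) was fitted to log2(TPM + 1) with the group as its only term, and an adjusted p under 0.05 over all kept genes counted as a call. The fit was tested on simulated data. Members, lists and tests were chosen with earlier results of these data known. The genes named were, in each subunit, the 4 largest increases and 4 largest decreases among called members with a mean TPM of at least 5, the 3 most abundant, and 9 fixed by name, and in each other list the 2 called genes with the largest change. Alternatives were pseudocounts of 0.5 and 0.1, no filter or a minimum of 5 TPM, upper-quartile, quantile and median-ratio scaling, values with mitochondrially encoded genes (alone or with the 50 most abundant) taken out, limma with array weights, with robust moderation or without trend, and leaving out each library, NC-2 also with median-ratio scaling. Promoters came from RefSeq (GRCh38.p14). Promoters on chromosome 8 and protein sequences are not printed.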

Additional observations from a re-analysis of the deposited data

Results flagged for a closer look

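In groups of 5 libraries, a value was marked when its gap to the nearest other library was over 0.71 of the group's range. Of 54 checks over 24 named members and 3 measures of the subunits, 16 were marked, whereas chance marks about 1 in 20. NC-2 accounts for 13 of the 16 and was the lowest control in 12 of those.

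NC-2 was far below the other controls in the sum of the large subunit (3488 TPM, next 4959) and in the sum of the small subunit (1929 TPM, next 2667). It was likewise the low control for MRPS18A (45.0 TPM), MRPS17 (30.5 TPM), MRPS12 (35.0 TPM), MRPL12 (132 TPM), MRPL51 (169 TPM), MRPL44 (37.8 TPM), MRPL11 (64.6 TPM), MRPS26 (69.3 TPM), MRPL16 (67.0 TPM) and MRPS34 (129 TPM). MRPS30 stood the other way, with NC-2 the highest control at 161 TPM and the next at 114. The mitochondrially encoded share of NC-2 was 37.5%, and its part in these values was not tested.

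In other libraries, MRPL10 was high in LY-2 (173 TPM, next 114), MRPL4 was high in NC-4 (242 TPM, next 223), and the ratio of the large to the small sum was high in NC-5 (2.01, next 1.85).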

How the results depend on the processing

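The count of members that rose (33) ran from 22 to 35 in the 23 alternatives. The count that fell (7) moved under 6 scalings, to 20 with median-ratio scaling, 23 with quantile normalization, 24 with upper-quartile scaling, 20 with mitochondrially encoded genes removed, 21 with the 50 most abundant removed too, and 23 with NC-2 left out and median-ratio scaling. Array weights gave 16. Leaving out single libraries gave 28 to 35 higher and 4 to 17 lower, with 4 lower without NC-1 or NC-5 and 17 without NC-2. Members wholly above the controls numbered 23 to 29, and those wholly below 1 to 14, the 14 being without NC-2. Of all tested genes, 39.8% rose and 24.9% fell as deposited, and 33.0% and 33.1% with median-ratio scaling. They were 33.2% and 32.7% with mitochondrially encoded genes removed, and 39.5% and 31.0% without NC-2. Without NC-2, 34.3% lay wholly above and 27.1% wholly below. Shares for the other alternatives were not computed, so those counts have no background. The large minus small median difference (-0.17) ranged from -0.18 to -0.08 over single libraries left out, and sorting by symbol alone gave -0.23. MRPL12 (0.09, not past the threshold) changed sign to -0.082 with median-ratio scaling, -0.16 quantile, -0.18 upper-quartile, -0.12 with mitochondrially encoded and top 50 genes removed, -0.069 with the former only, -0.031 with array weights, -0.096 without NC-2 (up to 0.15 without other single libraries) and -0.21 without NC-2 after median-ratio scaling. Of the other outcomes for named members, 486 kept their side of the threshold, 48 lost the call (MRPS36 in 14, MRPL4 in 12, MRPS24 in 9) and 10 gained it (MRPL51 in 7). The causes were not tested. No paired analysis was possible because no sample title holds the name of the control columns, so their numbers tie to no sample. Depth is unknown from TPM, so what it limits could not be stated.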
